A study of Mus musculus with 13 samples.

Results

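The 10 genes described here, Gsta4, Gstm1, Gstm5, Gstm7, Gstp1, Gsto1, Gstt1, Gstk1, Mgst1 and Mgst3, encode glutathione transferases and were taken by gene symbol from 41388 genes measured in cells that express Ret, taken by sorting from dorsal root ganglia (DRG) of mice. They were chosen with their levels in these libraries known, Gsta4 for its difference between spinal levels and the others as relatives, so their levels by spinal level are given as a description, with no test. Of the 10, 9 passed the filter on low counts, which 15406 of all genes passed, and Gstp1 was listed at 0 in every library.

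Glutathione transferases join the tripeptide glutathione to reactive, electron-poor molecules, which are then exported from the cell and broken down. The soluble enzymes are grouped into classes named by Greek letters (alpha, mu, pi, omega, theta), the kappa enzyme resides in mitochondria and peroxisomes, and the microsomal MGST enzymes form a separate membrane-bound family. GSTA4, of the alpha class, is known for its high activity towards hydroxynonenal, an aldehyde that forms when membrane lipids are oxidised.

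Cells were isolated by fluorescence-activated sorting from mice of the C57BL/6 background at 3 months of age that express enhanced green fluorescent protein (EGFP) from Ret, the receptor for ligands of the GDNF family. The labels give the genotype as Tg(Ret-EGFP)SJ, while the series text describes heterozygotes with EGFP inserted at the Ret locus; all groups carried it. The 4 groups were male L6S1 (ganglia of segments L6 and S1, libraries A, D, E and F), male L345 (segments L3 to L5, libraries A, B and C), female L6S1 (A, B and C) and female L345 (A, B and C). Each library was a pool of 2 to 9 mice, made from 10 ng of RNA, and nothing in the labels says whether a mouse gave ganglia to both levels. Levels are CPM, the count of a gene relative to the total of its library, scaled with TMM factors, and levels of different genes are compared per kilobase of exon (RPKM).

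Total counts ran from 13030096 to 27011995 per library. On the first principal component, which held 40.8% of the variance, male L6S1 D was at 73.1 and E at 120.8. The remaining 11 libraries ran from -52.1 (female L6S1 A) to 21.5 (male L6S1 F). On the second, which held 20.5%, libraries ran from -52.9 (male L6S1 F) to 62.4 (female L345 A). Counts of ribosomal protein genes made up 1.29% of D and 1.06% of E, against 0.431% to 0.626% elsewhere. Ret was at 154 CPM in D and 87.2 CPM in E, and at 181 to 221 CPM in the other libraries. The summed level of 10 markers of peptidergic nociceptors was 25713 CPM in D and 32805 CPM in E, within 12591 to 32805 CPM in male L6S1, 8828 to 10499 in male L345, 10985 to 12908 in female L6S1 and 10326 to 15152 in female L345. That of 10 markers of nonpeptidergic nociceptors was 1275 CPM in D and 725 CPM in E, within 725 to 2594 CPM in male L6S1, 2645 to 3167 in male L345, 2039 to 2582 in female L6S1 and 1645 to 2950 in female L345. The 16 markers of satellite glia and Schwann cells summed to 4648 CPM in D and 9720 CPM in E, within 3849 to 9720 CPM in male L6S1, 4122 to 4860 in male L345, 3334 to 4300 in female L6S1 and 3934 to 4690 in female L345. The 8 fibroblast markers summed to 356 CPM in D and 665 CPM in E, within 166 to 665 CPM in male L6S1, 102 to 186 in male L345, 223 to 459 in female L6S1 and 136 to 270 in female L345. Dcn alone gave 257 CPM of the sum in D and 570 CPM in E, while Col1a2 was at 7.35 CPM in D and 3.51 CPM in E, against 8.42 to 11.4 CPM in male L345. The 12 immune markers, 6 of them detected in all libraries, summed to 23.7 CPM in D and 29.6 CPM in E, within 10.9 to 29.6 CPM in male L6S1, 8.22 to 17.9 in male L345, 8.72 to 12.8 in female L6S1 and 10.2 to 13.9 in female L345. No gene of these 5 marker lists was at 0 in every library, 15 of the 16 glial markers were detected in all 13 libraries, and the part of these cell types in the values below was not tested. In such bulk samples, fewer cells of a type and less RNA per cell cannot be told apart. The fold changes of the members and lists are given with and without D and E.

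Gsta4 lies on the plus strand of chromosome 9, bases 78191966 to 78209348 of GRCm38 (the span of the gene, exons and introns together), apart from the other members. The first 150 coding bases of Gsta4 and Gsta3 in GENCODE M21 are shown here because they bear on whether short reads can separate these genes of the alpha class, with the bases that differ at the same position in capitals.
Gsta4: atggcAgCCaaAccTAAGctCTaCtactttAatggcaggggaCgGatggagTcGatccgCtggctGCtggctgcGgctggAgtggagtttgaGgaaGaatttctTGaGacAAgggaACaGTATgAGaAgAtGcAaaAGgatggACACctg
Gsta3: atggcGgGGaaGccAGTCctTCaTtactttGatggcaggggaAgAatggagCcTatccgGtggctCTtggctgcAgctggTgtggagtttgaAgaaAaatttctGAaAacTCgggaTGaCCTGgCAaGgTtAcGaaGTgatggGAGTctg
In this stretch 46 bases differed. Over the whole coding sequence, Gsta4 was identical to Gsta3 at 65.9% of 663 positions and the longest identical run was 13 bases. The values against Gsta1 (65.8%) and Gsta2 (66.1%) were alike. None of the 1217 windows of 50 bases in Gsta4 transcripts occurred in a transcript of another gene, so its counts do not depend on how the authors assigned shared reads of that length.

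Gsta4 was the member whose level differed most between spinal levels, and it was higher in all 7 L6S1 libraries than in all 6 L345 libraries. In males it was at 43.4 (A), 156 (D), 211 (E) and 55.2 (F) CPM in L6S1, against 10.8, 11.0 and 13.3 CPM in L345. In females it was at 44.4, 39.3 and 38.8 CPM in L6S1, against 24.3, 9.78 and 15.2 CPM in L345. The groups did not overlap in either sex, and male L6S1 A and F lay close to the female L6S1 libraries while D and E lay well above them. Gsta4 averaged 116 ± 80.8 CPM in male L6S1 (SD, n = 4), 11.7 ± 1.41 CPM in male L345 (n = 3), 40.8 ± 3.07 CPM in female L6S1 (n = 3) and 16.4 ± 7.36 CPM in female L345 (n = 3). By the CPM that the authors deposited, which has no factor between libraries, D was at 144 and E at 168.

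The log2 fold change of Gsta4 (L6S1 over L345, positive where L6S1 is higher) was 2.31 (SE 0.35) averaged over the sexes, 3.31 (SE 0.51) in males and 1.31 (SE 0.49) in females, which is 4.96-fold, 9.92-fold and 2.48-fold. Without D and E it was 1.69 (SE 0.21) averaged over the sexes and 2.06 (SE 0.30) in males, which is 3.22-fold and 4.18-fold. An alternative took the library letter as a block, which sets each library against that of the same letter and sex. Its log2 fold change of Gsta4, common to both sexes, was 1.55. Male L6S1 D, E and F and male L345 B and C have no partner of their letter in that fit. The value therefore rests on female A, B and C and male A, and is not the average of a male and a female value. The difference between the male and the female log2 fold change was 2.00 (SE 0.67) with all libraries and 0.75 (SE 0.41) without D and E. No gene was called for that difference by edgeR's quasi-likelihood test, DESeq2 or limma voom (0% of 15406 by edgeR, in which 1805 genes, 11.7%, had an unadjusted p under 0.05).

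**Figure D1:**
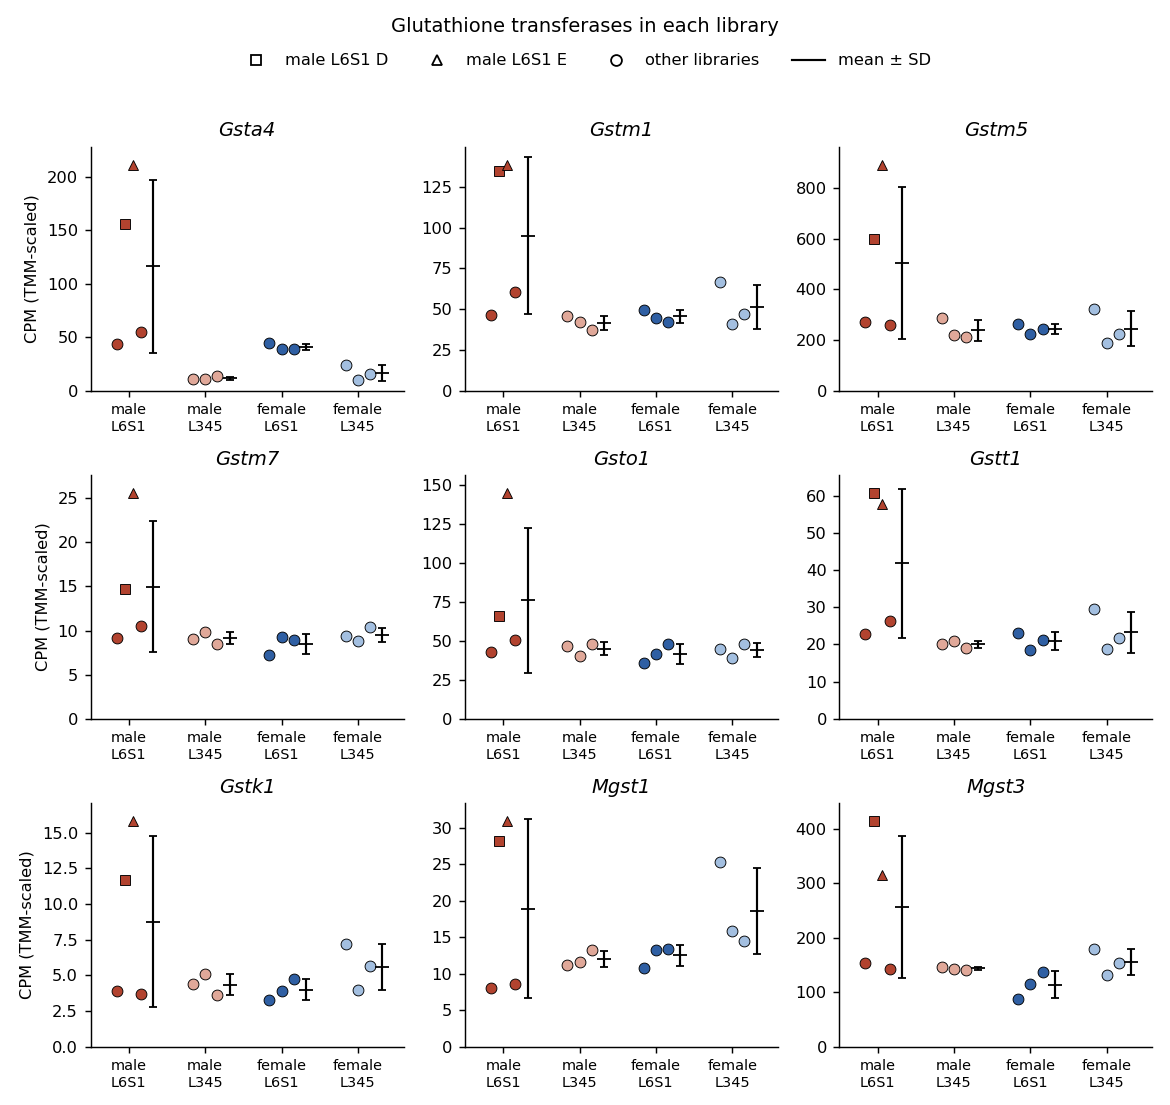
TMM-scaled CPM of the 9 measured glutathione transferases in each of the 13 libraries, by sex and spinal level; each point is a library, squares and triangles mark male L6S1 D and E, and bars give the mean and SD of a group. Gsta4 was at 38.8 CPM or more in every L6S1 library and at 24.3 CPM or less in every L345 library, while each other member overlapped between the levels over both sexes.

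Per kilobase of exon, Gstm5 was the most abundant member in all 13 libraries and Mgst3 came after it in all 13. The place of Gsta4 in this order differed by level: it ranked 3 in every L6S1 library of both sexes, and 4 to 6 in the L345 libraries, where Gstm1 ranked 3. Gsta4 averaged 122 ± 84.4 RPKM in male L6S1, 12.2 ± 1.47 in male L345, 42.6 ± 3.21 in female L6S1 and 17.2 ± 7.69 in female L345.

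The share of Gsta4 in the summed RPKM of the 9 members was computed within each library, so that scaling between libraries does not enter it. In males it was 9.42% (A), 13.4% (D), 15.1% (E) and 11.7% (F) in L6S1, against 2.48%, 2.92% and 3.61% in L345. In females it was 11.2%, 10.2% and 9.15% in L6S1, against 4.56%, 2.85% and 3.76% in L345. D and E, which had the highest summed level of the 9 members (1213 and 1462 RPKM, against 359 to 558 RPKM in the other libraries), were nearer to the remaining L6S1 libraries by this share than by CPM.

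**Figure D2:**
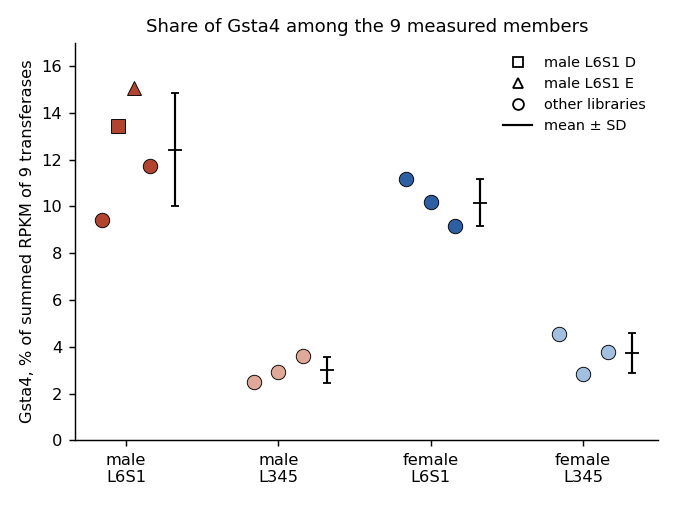
Share of Gsta4 in the summed RPKM of the 9 measured members, in percent, for each library by sex and spinal level; bars give the mean and SD of a group. Shares were 9.15% to 15.1% in the 7 L6S1 libraries and 2.48% to 4.56% in the 6 L345 libraries.

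The other alpha class genes measured were low. Gsta3 was at 0.292 to 0.990 CPM over all libraries, and Gsta1 and Gsta2 were at 0.0942 CPM or less. Gsta1 to Gsta3 are enzymes of the same class that are prominent in liver and other epithelial tissues.

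Among the mu class genes, which lie in a cluster on chromosome 3, Gstm5 was the most abundant. It was at 270 (A), 598 (D), 890 (E) and 258 (F) CPM in male L6S1, against 285, 218 and 211 CPM in male L345. Female values were 264, 223 and 243 CPM in L6S1, against 323, 190 and 223 CPM in L345. Outside D and E the 2 levels overlapped in both sexes. Gstm5 shares 12.2% of its 50-base windows with the antisense transcript 4933431E20Rik; because the use of strand is not given in the sources used here, their counts cannot be fully separated. That transcript was at 43.0 (A), 23.7 (D), 14.6 (E) and 33.0 (F) CPM in male L6S1 and at 45.4 to 46.6 CPM in male L345, so it was lower in the libraries in which Gstm5 was high.

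Gstm1 was at 46.5 (A), 135 (D), 138 (E) and 60.8 (F) CPM in male L6S1, against 45.5, 42.1 and 37.2 CPM in male L345. The female libraries had 49.7, 44.6 and 42.3 CPM in L6S1, against 66.7, 40.8 and 46.9 CPM in L345. Every male L6S1 library thus lay above every male L345 library, with 46.5 CPM in L6S1 A against 45.5 CPM in L345 A at the closest point, and the female groups overlapped. Gstm1 shares 19.9% of its windows with relatives and pseudogenes of the cluster, among them Gstm3, which had 12 counts in all libraries together, and Gstm2, which had 573. Gstm7 was the least abundant mu class member, at 14.7 CPM in D, 25.6 CPM in E and 7.23 to 10.6 CPM in the other 11 libraries.

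The bases before the start of Gstm5 are shown because this is the member window that holds all of the motifs named next. In the RefSeq promoter table (GRCm38.p6), 9 of the 10 members had an entry, Gsta4 not among them, and 3 motifs were searched on both strands in the 250 bases before each start. They were TGACNNNGC, the core of the antioxidant response element that NRF2 binds, TGANTCA, the AP-1 site, which reads the same on both strands, and GCGTG, the core of the xenobiotic response element that the aryl hydrocarbon receptor binds. The antioxidant core was found for Gstm5, Gstm7 and Mgst1, and 10.2% of all 32851 windows held it. The AP-1 site was found for Gstm5 and Gstp1, and 6.75% of all windows held it. The xenobiotic core was found for Gstm1, Gstm5, Gstp1 and Mgst3, and 28.2% of all windows held it; in Gstm5 it lies on the reverse strand and overlaps the ends of the other matches. The stretch of Gstm5, plus strand, chr3:107895604-107895820, ends where the gene begins in the annotation deposited with the counts, with the AP-1 and antioxidant matches in capitals.
Gstm5: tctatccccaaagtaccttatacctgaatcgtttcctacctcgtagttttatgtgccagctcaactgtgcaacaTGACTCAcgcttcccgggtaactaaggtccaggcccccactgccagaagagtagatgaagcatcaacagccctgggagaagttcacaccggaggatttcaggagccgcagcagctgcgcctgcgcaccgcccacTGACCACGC
A match describes these letters and does not show that a factor binds there.

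The pi class gene Gstp1, on the minus strand of chromosome 19, bases 4035407 to 4037921, was listed at 0 in all 13 libraries. It begins a stretch of 22 neighbouring genes, bases 4035407 to 4233631, of which 19 were at 0 and 2 had 1 or 2 counts in all libraries together. These include genes that most cells use, such as Ppp1ca, a catalytic subunit of protein phosphatase 1, and Pold4, a subunit of DNA polymerase delta. The remaining gene, Tmem134, had 1232 counts, and the flanking genes Ndufv1 and Ssh3 had 109294 and 4266. These neighbours were named after their values were seen. The zeros therefore say nothing about the level of Gstp1 in these cells, and no value is given for it. Of its windows, 51.0% also occur in another gene, and its copy Gstp2 was at 0 as well.

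Of the other soluble classes, the omega class gene Gsto1, whose product also reduces dehydroascorbate, was at 42.6 (A), 65.6 (D), 144 (E) and 50.3 (F) CPM in male L6S1, against 46.7, 40.0 and 47.8 CPM in male L345. Female values were 35.5, 41.2 and 48.1 CPM in L6S1, against 44.4, 39.1 and 47.9 CPM in L345. E lay far above the rest and D came next, and the levels overlapped in both sexes. Gsto1 lies within the span of Cfap43 on the opposite strand, and Cfap43 was at 1.26 CPM or less in every library.

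The theta class gene Gstt1 was at 22.7 (A), 60.7 (D), 57.7 (E) and 26.4 (F) CPM in male L6S1, against 20.2, 20.99 and 19.1 CPM in male L345. The female libraries had 23.1, 18.4 and 21.2 CPM in L6S1, against 29.4, 18.6 and 21.7 CPM in L345. As for Gstm1, the male groups did not overlap and the female groups did. The kappa class gene Gstk1 was low, at 11.7 CPM in D, 15.8 CPM in E and 3.31 to 7.21 CPM in the other 11 libraries.

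The microsomal member Mgst1, which also has peroxidase activity, differed from the others. It was at 8.10 (A), 28.1 (D), 30.9 (E) and 8.60 (F) CPM in male L6S1, against 11.2, 11.6 and 13.2 CPM in male L345. In females it was at 10.8, 13.3 and 13.4 CPM in L6S1, against 25.3, 15.9 and 14.5 CPM in L345. All 5 L6S1 libraries other than D and E therefore lay below the L345 libraries of their own sex, while D and E lay above all of them. Mgst3 was at 154 (A), 414 (D), 315 (E) and 143 (F) CPM in male L6S1, against 147, 144 and 140 CPM in male L345, and at 87.6, 116 and 138 CPM in female L6S1, against 180, 133 and 153 CPM in female L345.

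The number of members whose levels did not overlap can be set beside the same share of all genes tested. Over both sexes Gsta4 was the member with every L6S1 library above every L345 library, as were 0.539% of all genes, and no member was below in all (0.227% of all genes). In males Gsta4, Gstm1 and Gstt1 were above (9.21% of all genes) and none was below (9.49%). In males without D and E the same 3 were above (16% of all genes) and Mgst1 was below (14.6%). In females Gsta4 was above (4.89%) and Mgst1 below (3.86%). By edgeR's quasi-likelihood test with Benjamini-Hochberg adjustment, 0.448% of all genes were called between levels averaged over the sexes (0.428% higher and 0.0195% lower). In males 0.221% were called, all higher, and in females 0.0195%. With the letter as a block, 90 genes were called for the effect of level common to the sexes. In females 49 were called. Without the block, 69 were called averaged over the sexes and 3 in females. These contrasts chose the members, so no call of a member is given for them.

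**Figure D3:**
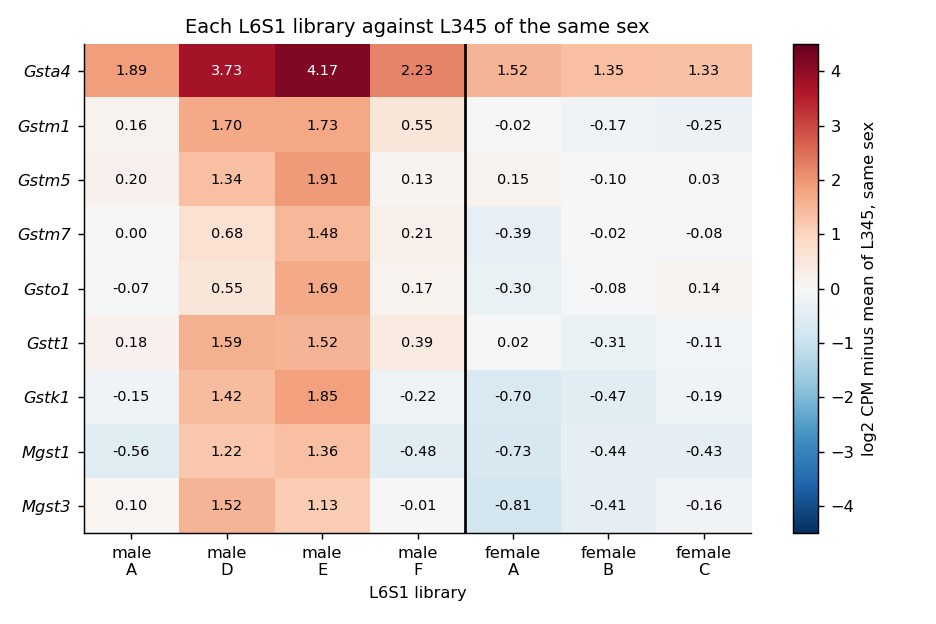
Log2 CPM of each L6S1 library minus the mean log2 CPM of the L345 libraries of the same sex, for the 9 measured members (rows) in the 4 male and 3 female L6S1 libraries (columns). Gsta4 was positive in all 7 libraries (1.33 to 4.17), and the other 8 members were positive together in male D and E and scattered around 0 or below it elsewhere.

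Set against the mean of the L345 libraries of the same sex on a log2 scale, all 8 members other than Gsta4 were higher in D (0.55 to 1.70, median 1.38) and in E (1.13 to 1.91, median 1.60). In A and F, 5 of the 8 were higher, with medians of 0.05 and 0.15. In the female L6S1 libraries A, B and C, 2, 0 and 2 of the 8 were higher, with medians of -0.34, -0.24 and -0.13. Gsta4 was higher by 1.89 (A), 3.73 (D), 4.17 (E) and 2.23 (F) in males and by 1.52, 1.35 and 1.33 in females.

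Gene length moved with these values in D and E. All 9 measured members, with 930 to 2013 bases of exon, fell in the shortest of 4 equal bins of all genes tested by exon length (57 to 2110 bases, 3853 genes). The median difference of that bin from L345 was 0.79 in D and 1.06 in E, against 0.11 in male A, 0.14 in male F and -0.19 to 0.02 in the female libraries. The longest bin (5618 bases or more) was at -0.56 in D and -0.84 in E. Taken relative to the median of the shortest bin in the same library, Gsta4 was at 2.94 in D and 3.11 in E, against 1.78 in male A, 2.09 in male F and 1.31 to 1.72 in the female libraries. On the same relative scale the 8 other members had medians of 0.59 in D (6 of 8 above 0) and 0.54 in E (8 of 8 above 0), against -0.05 in A and 0.01 in F. The part of gene length in the levels of D and E was not tested.

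**Figure D4:**
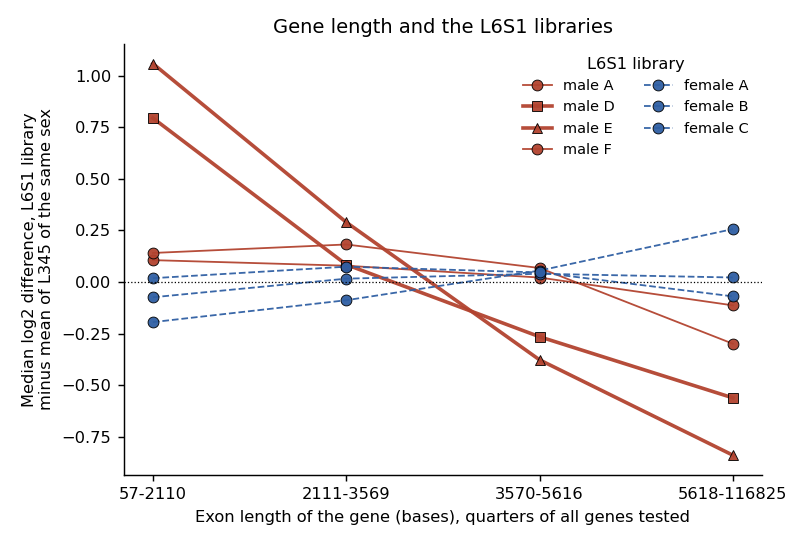
Median log2 difference of each L6S1 library from the mean of the L345 libraries of the same sex, in 4 bins of all 15406 genes tested by exon length in bases; solid lines are male and dashed lines female libraries. The shortest bin, which holds all 9 measured members, was at 0.79 in D and 1.06 in E and between -0.19 and 0.14 in the other 5 libraries.

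The fitted log2 fold changes of the 8 other members in males ran from 0.65 (Mgst1, SE 0.42) to 1.19 (Gstm1, SE 0.36). Without D and E they ran from -0.53 (Mgst1, SE 0.26) to 0.36 (Gstm1, SE 0.22), and those of Gstm5, Gstm7, Gsto1 and Mgst3 were between 0.04 and 0.14 with an SE of 0.19 to 0.22. In females they ran from -0.57 (Mgst1, SE 0.45) to -0.01 (Gstm5, SE 0.40). Without female L345 A, the female values of Gstm1 and Gstt1 were each 0.04 and that of Gstm5 was 0.23. Those of Mgst1 and Gstk1 were then -0.29 and -0.27. Averaged over the sexes, the values ran from 0.04 (Mgst1) to 0.54 (Gstm5) with all libraries and from -0.55 (Mgst1) to 0.09 (Gstm1) without D and E. The fit with the block by letter gives an effect of level common to the sexes. It rests on female A, B and C and male A, so D and E have no part in it. In this fit all 8 values were below 0. They were -0.52 (Mgst1), -0.40 (Gstk1), -0.33 (Mgst3), -0.12 (Gstm7), -0.10 (Gstm1), -0.09 (Gsto1), -0.06 (Gstt1) and -0.0022 (Gstm5).

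**Figure D5:**
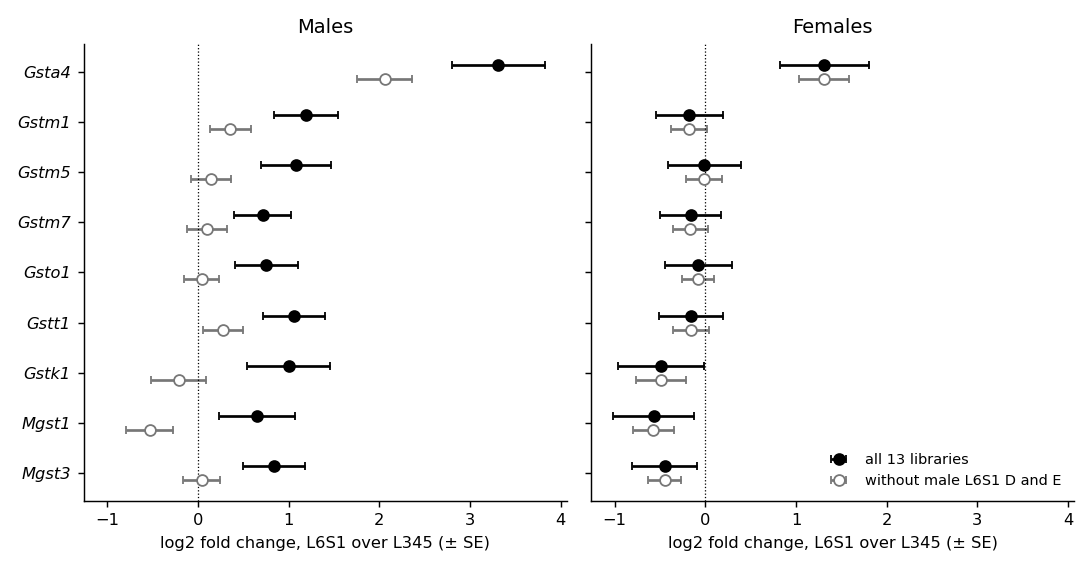
Log2 fold change of L6S1 over L345 with its SE for the 9 measured members, in males (left) and females (right), with all 13 libraries (filled) and without male L6S1 D and E (open). Gsta4 was at 3.31 and 2.06 in males and 1.31 in females, whereas the male values of the other 8 members ran from 0.65 to 1.19 with D and E and from -0.53 to 0.36 without them.

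Males against females at L345 was the contrast that used no L6S1 library, and the members were tested in it. None of the 9 was called by edgeR's quasi-likelihood test, where 0.0325% of all genes were called (0.026% higher and 0.00649% lower in males). At an unadjusted p under 0.05 there were 133 genes (0.863%), no member among them, and DESeq2 called 8 genes. The log2 fold changes ran from -0.63 (Mgst1, SE 0.45) to 0.03 (Gsto1, SE 0.37), 8 of the 9 were below 0, and each had an adjusted p of 1.00. That of Gsta4 was -0.49 (SE 0.49), with 11.7 ± 1.41 CPM in males and 16.4 ± 7.36 CPM in females. Female L345 A had the highest value of the 6 libraries for Gsta4, Gstm1, Gstm5, Gstt1, Gstk1, Mgst1 and Mgst3. With 3 pools a group and these SEs, differences of this size were not resolved, which does not show that the sexes were alike.

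Gsta4 was also set beside all other genes by its profile over the 13 libraries, using the mean absolute difference of log2 CPM standardised for each gene, among 11230 genes whose log2 CPM averaged 1 or more, predicted genes and immune receptor segments left out. The profile most like it was that of Cidea, which encodes a protein of lipid droplets (0.164 SD), followed by Msantd1 (0.211), Rasl11a (0.215), Nudt17 (0.232), Pnlip (0.242), Upp1 (0.249), Smim3 (0.254), Cartpt (0.255), Rsph9 (0.259) and Gal (0.267). These genes had 712 (Gal) to 2793 (Msantd1) bases of exon, and all but Msantd1 fell in the shortest bin by exon length, as Gsta4 did. The part of gene length in this likeness was not tested. Cidea was at 9.30 (A), 34.2 (D), 48.4 (E) and 18.5 (F) CPM in male L6S1, against 5.36, 3.96 and 3.46 CPM in male L345, and at 8.99, 10.5 and 9.88 CPM in female L6S1, against 6.84, 2.99 and 3.86 CPM in female L345. Upp1, uridine phosphorylase, was at 10.7 (A), 20.4 (D), 25.7 (E) and 15.6 (F) CPM in male L6S1, against 3.87, 3.82 and 4.04 CPM in male L345. Gal and Cartpt encode neuropeptides, and Gal was at 371 (A), 1417 (D), 1513 (E) and 703 (F) CPM in male L6S1, against 179, 240 and 187 CPM in male L345. The female levels of Gal overlapped, at 346, 365 and 306 CPM in L6S1 against 394, 211 and 228 CPM in L345. Over the 11 libraries without D and E, Upp1 ranked 3, Smim3 4 and Cidea 6, and Mrap2 and Hoxc10 were the most alike. The rest of the genes named as most alike then ranked from 18 (Pnlip) to 63 (Gal). Among the other 8 members, the most like Gsta4 was Gstm5, at rank 383 with all libraries and 948 without D and E, where Gstt1 came before it at rank 882.

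The other genes of glutathione metabolism were taken from 6 lists with 117 genes, of which 97 were tested. They cover other glutathione transferases, synthesis and supply of glutathione, peroxide and thiol enzymes, NRF2 with its regulators and targets, aldehyde detoxification and export of conjugates. The list called other transferases also holds related genes such as Alox5ap. By edgeR's quasi-likelihood test 0 of the 97 were called in any of the 5 contrasts, against 0.448% of all genes averaged over the sexes and 0.221% in males. At an unadjusted p under 0.05 there were 9 averaged over the sexes (1293 of all genes, 8.39%), 34 in males (3904 of all genes, 25.3%) and 1 in females (347 of all genes, 2.25%). DESeq2 called 3 averaged over the sexes, where it called 1.01% of all genes with an adjusted p, and 13 in males, where it called 7.53%. All of these were higher in L6S1, and limma voom called none. Without male L6S1 A, edgeR called 2 averaged over the sexes (0.843% of all genes) and 28 in males, all higher, where it called 20.5% of all genes, 1619 higher and 1514 lower. Without male L345 A it called 1 averaged over the sexes (0.304% of all genes). The median log2 fold change in males was 0.36 over the 97 genes and 0.04 over all genes tested, and in females it was -0.02 and 0.00.

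Those with the smallest p were Akr1b8, Gpx3 and Blvrb, which DESeq2 called both averaged over the sexes and in males. Akr1b8, an aldo-keto reductase that reduces lipid aldehydes, was at 2.85 (A), 4.38 (D), 5.44 (E) and 3.24 (F) CPM in male L6S1, against 2.31, 1.12 and 1.02 CPM in male L345. In females it was at 3.79, 3.37 and 5.28 CPM in L6S1, against 3.08, 1.77 and 1.68 CPM in L345. The groups did not overlap within either sex, with L6S1 above, as for 9.21% of all genes tested in males and 4.89% in females. Over both sexes together they overlapped, with 2.85 CPM in male L6S1 A against 3.08 CPM in female L345 A. Averaged over the sexes its log2 fold change was 1.19 (SE 0.28, adjusted p = 0.0905, edgeR) and 1.00 without D and E (adjusted p = 0.256).

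Gpx3, the secreted glutathione peroxidase, was at 977 (A), 1783 (D), 2969 (E) and 1637 (F) CPM in male L6S1, against 427, 750 and 624 CPM in male L345, and at 709, 681 and 817 CPM in female L6S1, against 753, 564 and 648 CPM in female L345. The male groups did not overlap, with L6S1 above as for 9.21% of all genes tested, and the female groups did. The log2 fold change of Gpx3 was 1.62 in males (SE 0.34, adjusted p = 0.0676, edgeR) and 1.11 in males without D and E (adjusted p = 0.250). Blvrb, biliverdin reductase B, had 1.45 in males (SE 0.33, adjusted p = 0.101, edgeR) and 0.72 without D and E. Gstm6, a mu class enzyme of the same cluster, had 0.98 averaged over the sexes (SE 0.31, adjusted p = 0.355, edgeR) and 0.49 without D and E.

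On the list of other transferases, 11 of 12 genes had a log2 fold change above 0 averaged over the sexes, among them Gstm4 (0.66, SE 0.22). The 11 also include Alox5ap (0.78, SE 0.26), whose product presents arachidonic acid to lipoxygenase and is not itself a transferase. Of the peroxide and thiol enzymes, 25 of 28 were above 0, among them Gpx1, the main cytosolic glutathione peroxidase (0.66, SE 0.28), and Prdx5, a peroxiredoxin (0.49, SE 0.24). Genes of glutathione supply were divided, with 13 of 19 above 0, and Ggct, which splits gamma-glutamyl peptides, was at 0.61 (SE 0.29) and Slc3a2, the heavy chain of the cystine transporter, at 0.46 (SE 0.23). NRF2 and its partners had 10 of 18 above 0, with Ftl1, the ferritin light chain, at 0.47 (SE 0.23) and Ephx1, the microsomal epoxide hydrolase, at 0.43 (SE 0.17). The aldehyde genes had 11 of 14 above 0, with the reductases Cbr1 at 0.47 (SE 0.22) and Akr1a1 at 0.36 (SE 0.19). Of the exporters 4 of 6 were above 0, and Abcc1, which pumps glutathione conjugates out of the cell, was at -0.15 (SE 0.30). None of these genes passed the test (edgeR), and 51.7% of all genes tested lay above 0. Without D and E the counts above 0 were 7 of 12 other transferases, 16 of 28 peroxide and thiol enzymes, 12 of 19 supply genes, 12 of 18 genes of the NRF2 list, 13 of 14 aldehyde genes and 5 of 7 exporters, 1 more exporter having passed the filter. The median of the other transferases was then 0.05, against 0.40 with all libraries, and that of the peroxide and thiol enzymes 0.04, against 0.32. Gstm4 was at 0.42, Alox5ap at 0.63, Gpx1 at 0.26, Prdx5 at 0.11, Ggct at 0.12, Slc3a2 at 0.40, Ftl1 at 0.15, Ephx1 at 0.32, Cbr1 at 0.16, Akr1a1 at 0.15 and Abcc1 at 0.10 without D and E.

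By list, the median difference of the other glutathione transferases from L345 of the same sex was 1.01 in D and 1.33 in E, that of the peroxide and thiol enzymes 0.99 and 1.24, and that of glutathione supply 0.02 and 0.26. In male A the same medians were 0.31, 0.11 and 0.21, and in male F 0.15, 0.30 and 0.15. The median male log2 fold change of the other transferases was 0.90 with all libraries and 0.02 without D and E, that of the peroxide and thiol enzymes 0.73 and 0.13, and that of the aldehyde genes 0.75 and 0.25. Gene length was not taken into account in these medians, and its part in them was not tested.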

How the data were processed

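RNA sequencing of 13 pooled libraries, whose cDNA was amplified with SMARTer Ultra Low reagents per the labels' protocols, was analysed from the files the authors deposited. Salmon, featureCounts 1.4.5, Subread and STAR 2.0.4b, with the builds mm10 and GRCm38.p2, are listed in the submitters' processing notes without roles. How strand and multimapping reads were handled is not given in the sources used here. Every test used the raw counts the authors deposited. The deposited CPM and the deposited RPKM follow from these counts, the library totals and the exon lengths, and were used as a check.

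Counts were filtered with filterByExpr (15406 genes), scaled with TMM and tested in R 4.3.3 with edgeR 4.0.16 (robust quasi-likelihood F-test, 1 mean per group over 13 libraries, Benjamini-Hochberg, called at an adjusted p under 0.05). An SE was derived as the size of the log2 fold change divided by the root of F. Levels and SDs use TMM-scaled CPM. A floor of 3 counts is 0.111 to 0.230 CPM, for counting error only. Per-library log2 differences use a prior count of 2. DESeq2 1.42.0 and limma 3.58.1 (voom) were alternatives, and the steps were tested on simulated data. Symbols came from GENCODE M21. Spans and exon lengths came from the annotation deposited with the counts. Of its identifiers, 40340 were also in GENCODE M21, and 76.0% of those had the same span there.

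Members and lists were chosen with earlier results of these data known. Named pathway genes are called genes, or the 3 smallest p of a list with fewer than 3 called; examples from them are given. Deviations of libraries with the same sex and letter correlated over 15406 genes at 0.52, 0.20 and 0.49 (female A, B and C) and 0.10 (male A), so the letter was used as a block in an alternative; the pairing comes from these values, not from the labels. Libraries are pools, and p-values measure the spread between them.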

Additional observations from a re-analysis of the deposited data

How the results depend on the processing

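Of the 900 alternative values of the members' log2 fold changes, 875 counted as unchanged. This meant within 1 SD of the main value. For males against females at L345 it meant that the member was still not called, whatever the size of the change. The SD was that of the gene's log2 CPM within groups over all 13 libraries, so the spread of D and E enters it. A value that changed sign could count as unchanged. Averaged over the sexes, Mgst1 changed sign in 8 fits and Gstk1 in 2, and none of these counted as moved. Without D and E, Mgst1 went from 0.04 to -0.55 and Gstk1 from 0.26 to -0.35. Of the 25 that moved, 18 came from leaving out male L6S1 D and E together. Gsta4 kept its sign between levels in every fit. Counts of called genes moved with the tool: averaged over the sexes 69 became 187 with DESeq2 and 144 without the low-count filter; in females 3 became 47 with DESeq2, 11 with voom, 34 without the filter, 23 without D and E and 14 in a fit of the compared groups alone; in males 34 became 965, 17, 264, 19 and 2 in the same order; for the sexes at L345 5 became 8 with DESeq2 and 8 without the filter; and for the difference between the sexes 0 became 1 without the filter. With the letter as a replicate block, females had 49 called genes in place of 3. The effect of level common to the sexes in that fit had 90. Of these, 49 were shared with the 69 averaged over the sexes. No paired analysis was possible for males, who share letter A alone, for the sexes at L345 or for the difference between the sexes. Leaving out each library in turn gave 28 to 129 genes averaged over the sexes. The count rose by a factor of more than 1.5 without male L6S1 A (129). It fell by more than that factor without male L345 B or C, any female L6S1 library, or female L345 B or C. In females, leaving out a library gave 0 to 11 genes. Such shifts, up or down, came without female L345 B, female L6S1 A or B, male L345 B, or male L6S1 E or F. In males, leaving out a library gave 4 to 3133 genes (3133 without male L6S1 A, 1619 of them higher). The count fell by more than that factor without male L6S1 D or E, any male L345 library, or female L345 B. Genes of the pathway lists numbered 3 averaged over the sexes and 13 in males with DESeq2, 1 and 2 without the filter, and 0 to 2 and 0 to 28 with a library left out (2 and 28 without male L6S1 A). Pools of few mice, 2 libraries that stand apart and unknown strand handling limit these values.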
